A study of Mus musculus with 12 samples.

Results

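The vacuolar proton pump acidifies synaptic vesicles, endosomes and lysosomes. Its V1 sector in the cytoplasm splits ATP, and its V0 sector in the membrane carries protons through a rotating ring of proteolipid subunits. In nerve terminals the proton gradient it builds drives the loading of glutamate, GABA, acetylcholine and monoamines into vesicles. The 9 genes described here encode the V0 subunits a1, a2, b, c, d1, e and e2 (Atp6v0a1, Atp6v0a2, Atp6v0b, Atp6v0c, Atp6v0d1, Atp6v0e and Atp6v0e2) and the accessory proteins Atp6ap1 and Atp6ap2, out of 54429 entries in the count table. They were taken by name, and the set was chosen by the measured CPM of Atp6v0c, which was higher in isolated than in group-housed VTA in these same libraries. The VTA contrast between housing conditions is therefore given as a description, without a test.

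The 12 RNA-seq libraries came from punched brain tissue of C57BL/6 mice and form 4 groups of 3. Isolated BLA and group-housed BLA came from males, and isolated VTA and group-housed VTA from females. Isolated mice had been socially isolated early in life, a treatment for which the sources used here state neither age nor length. The labels name the punched regions only by these abbreviations and the tissue only as cerebrum, and no transgene or other treatment is listed for any group. Region and sex change together, so their parts in a difference between BLA and VTA cannot be told apart.

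Total counts ranged from 28278708 to 69276892 per library. Levels are given as CPM, which are counts relative to each library's total after TMM scaling across all 12 libraries, with the SD over 3 libraries where a mean is printed. The summed level of 6 dopamine neuron markers was 590.5 to 1279 CPM in the VTA libraries and 18.2 to 23.95 CPM in the BLA libraries. Since no label ties a library to its own animal, p-values reflect only how far these libraries spread, which may be technical. In such bulk samples fewer cells of a type and less RNA per cell cannot be told apart. Among BLA libraries, the loci of ribosomal RNA held 18.6% of isolated library 3 and 28.6% and 41.8% of group-housed libraries 1 and 2. They held at most 1.57% of any other library.

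Atp6v0c, the proteolipid that forms most of the ring, shares almost all of its coding sequence with another entry of the table. The gene lies on the minus strand at chr17:24163866-24169702 (mm10, GENCODE M21) and has 3 exons, with 2 junctions inside its coding sequence of 468 bases. Atp6v0c-ps2, annotated as a processed pseudogene, lies at chr6:37806086-37806550 on the plus strand in a single block of 465 bases. It is identical to the Atp6v0c coding sequence at 464 of those 465 bases. The difference is T111C, with the Atp6v0c base first and positions counted from 1 at the first base of the start codon. It falls in exon 2, at position 24164851 of chromosome 17 and 37806196 of chromosome 6. Bases 51 to 171 of both are shown because they hold the 1 base that tells the entries apart, which is in capitals:
Atp6v0c: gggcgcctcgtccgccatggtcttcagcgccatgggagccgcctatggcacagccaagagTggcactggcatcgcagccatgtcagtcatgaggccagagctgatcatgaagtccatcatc
Atp6v0c-ps2: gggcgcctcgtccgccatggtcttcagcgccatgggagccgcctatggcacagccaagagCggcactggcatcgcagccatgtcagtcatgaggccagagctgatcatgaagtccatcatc
A read from spliced coding sequence that does not cover this base matches both places. The sources used here do not state how such reads were assigned, so the level of Atp6v0c alone is uncertain.

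In both regions Atp6v0c had more counts in most isolated libraries than in group-housed ones, and its copy fewer. Atp6v0c had 3745, 3273 and 3004 counts in isolated BLA libraries 1 to 3, against 2043, 852 and 1919 counts in group-housed BLA. Atp6v0c-ps2 had 35, 2052 and 133 counts in isolated BLA, against 1784, 653 and 4036 counts in group-housed BLA. The copy was thus nearly empty in isolated libraries 1 and 3 and well filled in isolated library 2. In VTA, Atp6v0c had 2478, 3694 and 3162 counts in isolated libraries, against 2130, 1651 and 2866 counts in group-housed libraries. Atp6v0c-ps2 had 38, 1080 and 40 counts in isolated VTA, against 1244, 1691 and 2541 counts in group-housed VTA. Again only isolated library 2 carried many counts at the copy among the 3 isolated VTA libraries.

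The share of the summed counts that lay at the copy shows the same split. In BLA it was 0.926% (exact 95% interval 0.646 to 1.29%), 38.5% (37.2 to 39.9%) and 4.24% (3.56 to 5.005%) in isolated libraries, against 46.6% (45.0 to 48.2%), 43.4% (40.9 to 45.9%) and 67.8% (66.6 to 68.96%) in group-housed libraries. In VTA it was 1.51% (1.07 to 2.07%), 22.6% (21.4 to 23.8%) and 1.25% (0.894 to 1.70%) in isolated libraries, against 36.9% (35.2 to 38.5%), 50.6% (48.9 to 52.3%) and 47.0% (45.7 to 48.3%) in group-housed libraries. In both regions every isolated library had a smaller share than every group-housed library. In VTA the share is built from the Atp6v0c counts that picked the gene, so it is no separate support there. These intervals are Clopper-Pearson intervals and cover counting error only. What sets the share was not tested. A more distant copy, Atp6v0c-ps1 on chromosome 7, did not exceed 0.361 CPM in any library.

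**Figure D1:**
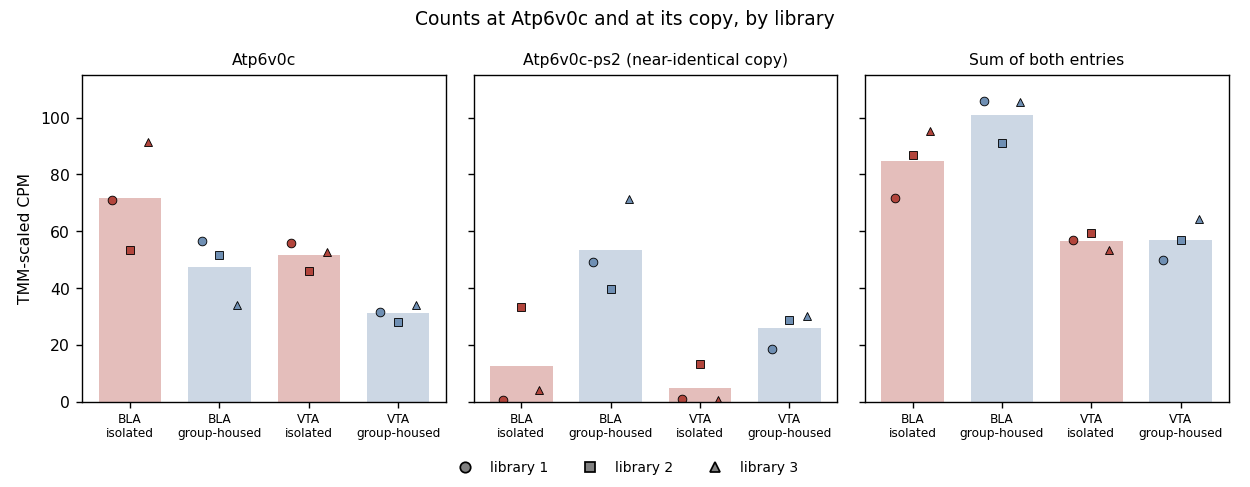
TMM-scaled CPM of Atp6v0c, Atp6v0c-ps2 and their sum (vertical axis) in the 12 libraries by region and housing; bars are means and symbols are libraries. Atp6v0c is higher in isolated VTA than in group-housed VTA without overlap, the copy is lower, and the sum overlaps.

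In VTA, Atp6v0c stood at 55.9, 46.0 and 52.6 CPM in isolated libraries, against 31.5, 28.05 and 34.1 CPM in group-housed libraries. These groups did not overlap, which is the difference the gene was picked for. The log2 fold change, isolated over group-housed, was 0.66 (SE 0.10, 1.58-fold), and it ran from 0.59 to 0.73 when each library was left out in turn. The SE and this range rest on the values that picked the gene, so they are no separate support. With the counts of both entries summed, an alternative chosen after seeing the data, the levels were 56.8, 59.4 and 53.3 CPM in isolated VTA, against 49.9, 56.8 and 64.3 CPM in group-housed VTA. The summed groups overlapped, and their log2 fold change was -0.07 (SE 0.10). The higher level of Atp6v0c in isolated VTA was thus not seen in the sum of the 2 entries.

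In BLA, whose housing contrast played no part in picking the gene, Atp6v0c stood at 70.9, 53.4 and 91.2 CPM in isolated libraries, against 56.4, 51.6 and 33.97 CPM in group-housed libraries. Isolated library 2 lay below group-housed library 1, so the groups overlapped. The log2 fold change was 0.61 (SE 0.24), with an unadjusted p of 0.0389 and an adjusted p of 1 by edgeR's quasi-likelihood test, adjusted by Benjamini-Hochberg over 22110 genes. It ran from 0.395, without isolated library 3, to 0.784, without isolated library 2, and was 0.413 without group-housed library 3. It was 0.869 without the 3 libraries rich in ribosomal RNA loci, which left only group-housed library 3 in its group. The unadjusted p by edgeR was 0.0746 to 0.108 without any 1 of isolated libraries 1 and 3 and group-housed libraries 2 and 3. It was 0.00535 without isolated library 2. The summed entry had 71.5, 86.9 and 95.3 CPM in isolated BLA, against 105.7, 91.1 and 105.4 CPM in group-housed BLA. Its log2 fold change was -0.25 (SE 0.12, unadjusted p = 0.0543, adjusted p = 1 by edgeR), opposite in sign to that of Atp6v0c alone. The copy by itself had a log2 fold change of -2.05 (SE 1.38, adjusted p = 1 by edgeR) in BLA and of -2.37 (SE 1.28, given as a description) in VTA.

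The 8 other members were checked for shared reads as well. Genes that overlap Atp6v0a1, Atp6v0a2 or Atp6v0b in the annotation, on either strand, did not exceed 0.242 CPM in any library. Of all genes in the count table, 3 shared at least 50 stretches of 50 bases with a member's annotated transcripts. They were both copies of Atp6v0c and Gm36448, which resembles part of Atp6ap2 and did not exceed 0.111 CPM.

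Per kilobase of annotated exon the members fell into a high, a middle and a low tier. In group-housed BLA, Atp6v0e2, the neuron-enriched form of the small subunit e, averaged 132.0 ± 11.3 CPM per kb (SD, n = 3), Atp6ap1 118.7 ± 5.86, Atp6v0d1 107.7 ± 7.50 and Atp6ap2 103.7 ± 14.7. The ranges of neighbours in that order overlapped. Atp6v0a1 at 68.4 ± 5.89 CPM per kb and Atp6v0b at 66.5 ± 13.4 formed the middle tier and overlapped each other. Atp6v0c, Atp6v0a2 and Atp6v0e averaged 14.0 ± 3.49, 9.73 ± 0.491 and 3.76 ± 0.246 CPM per kb. Atp6v0c, as counted alone, thus stood far below Atp6v0b, the proteolipid it shares the ring with. The counts at the copy are not included in this value. The length used counts every annotated exon base of a gene, from any of its transcripts. It was 3384 bases for Atp6v0c, 3712 for Atp6v0e and 2051 for Atp6v0b, so the tiers depend on the annotation. Without division by length, Atp6v0c averaged 47.3 CPM and Atp6v0b 136.4 CPM in group-housed BLA.

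The order was nearly the same in the other groups. Atp6v0e2 was the highest member per kb in isolated BLA (124.8 ± 14.4 CPM per kb) and in isolated VTA (120.3 ± 12.7), and Atp6ap1 in group-housed VTA (95.9 ± 4.17, against 93.9 ± 2.33 for Atp6v0e2, with overlapping ranges). Atp6v0e, the ubiquitous e subunit, was the lowest in all 4 groups, at 3.84 ± 0.625 CPM per kb in isolated BLA, 5.26 ± 0.516 in isolated VTA and 4.44 ± 0.275 in group-housed VTA. In group-housed VTA, Atp6v0c (9.23 ± 0.898 CPM per kb) and Atp6v0a2 (9.19 ± 0.496) overlapped.

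**Figure D2:**
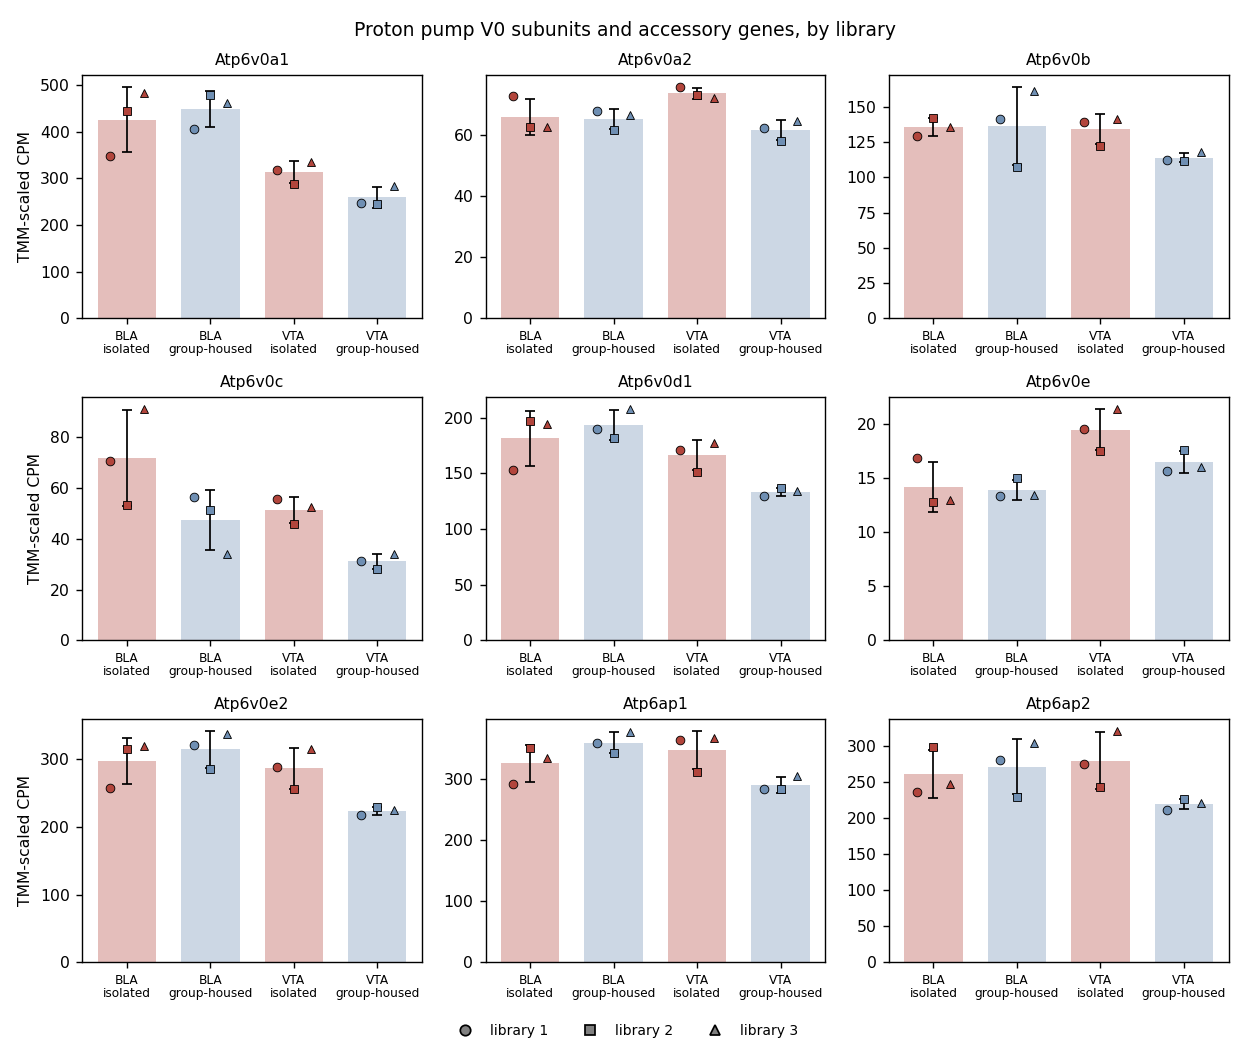
TMM-scaled CPM (vertical axis, from 0 in each panel) of the 9 genes in the 12 libraries; bars are means, error bars SD (n = 3) and symbols libraries. In VTA, 8 of 9 genes have all isolated libraries above all group-housed libraries, as do 17.4% of all genes, Atp6v0e being the exception. The VTA contrast is the one that picked Atp6v0c. In BLA the groups overlap for all 9, while 7.11% of all genes have groups that do not overlap, in either direction.

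The BLA contrast asks whether early isolation altered these genes in males, and none of the 9 members passed the test. The test called 0 of 22110 genes (0.0%) with edgeR, with 439 at an unadjusted p under 0.05. DESeq2 called 6 and limma voom 0. Of the 8 members other than Atp6v0c, 6 had a negative and 2 a positive fold change for isolated mice, with log2 fold changes of -0.14 to 0.04 and a median of -0.06. The median over all genes tested was 0.00. Not one of the 9 members had groups that did not overlap, against 7.11% of all genes in either direction. Without the 3 libraries rich in ribosomal RNA loci, only library 3 was left in group-housed BLA. The log2 fold changes of Atp6v0a1, Atp6v0b, Atp6v0d1, Atp6v0e2, Atp6ap1 and Atp6ap2 were then -0.222, -0.25, -0.249, -0.239, -0.231 and -0.19. Atp6v0e then stood at 0.141, and Atp6v0a2 within -0.0401 to 0.0296.

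Atp6v0a1, the a subunit that takes the pump to synaptic vesicles, had 348.1, 445.1 and 483.7 CPM in isolated BLA, against 405.0, 478.6 and 462.2 CPM in group-housed BLA. Isolated library 1 was the lowest of the 6, and the others interleaved. The log2 fold change was -0.07 (SE 0.13, adjusted p = 1 by edgeR). Atp6v0d1, which couples the ring to the central stalk, had 153.0, 197.1 and 194.7 CPM in isolated BLA, against 189.9, 181.7 and 207.9 CPM in group-housed BLA (log2 fold change -0.09, SE 0.12). Isolated library 1 was again the lowest. The sum of 7 cortical neuron markers was also lowest there, at 758.4 CPM against 1137 to 1542 CPM in the other BLA libraries, and its part in these values was not tested.

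Atp6ap1, an assembly and sorting partner of V0, stood at -0.14 in BLA (SE 0.10, unadjusted p = 0.204, adjusted p = 1 by edgeR), and at -0.0675 without isolated library 1. It had 291.9, 350.7 and 333.7 CPM in isolated BLA, against 359.0, 341.6 and 377.0 CPM in group-housed BLA, so that only isolated library 2 exceeded a group-housed library. Atp6ap2, the prorenin receptor and a further V0 partner, had a log2 fold change of -0.06 (SE 0.13), Atp6v0e2 of -0.08 (SE 0.11) and Atp6v0b of -0.01 (SE 0.13). Atp6v0a2, the a subunit of the Golgi, stood at 0.02 (SE 0.10) and Atp6v0e at 0.04 (SE 0.14). That these tests were missed does not show equal levels.

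In VTA, where the question is the same in females, all 9 members had a higher mean level in isolated mice. The 8 members other than Atp6v0c had log2 fold changes of 0.18 to 0.30 with a median of 0.21, and the median over 24082 genes was 0.00. With upper-quartile factors, which moved that median to -0.07, the 8 values were 0.105 to 0.225. Atp6v0a1, Atp6v0a2, Atp6v0b, Atp6ap1 and Atp6v0e then stood at 0.146, 0.128, 0.105, 0.127 and 0.113. Of the 9 genes, 8 had isolated libraries that all lay above the group-housed ones, as 17.4% of all genes did. Over the whole table, edgeR called 1 gene (0.00415%) at an adjusted p under 0.05. Since this contrast chose Atp6v0c, nothing is read from these counts.

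Atp6v0e2 had 288.9, 255.0 and 315.2 CPM in isolated VTA, against 217.5, 228.5 and 224.5 CPM in group-housed VTA, a log2 fold change of 0.30 (SE 0.08). Atp6ap2 had 275.3, 243.3 and 320.9 CPM in isolated VTA, against 212.0, 226.1 and 221.1 CPM in group-housed VTA (0.29, SE 0.10). In both genes isolated library 2 was the nearest to the group-housed libraries, and library 3 was the highest.

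Atp6v0d1 had 171.1, 151.6 and 177.8 CPM in isolated VTA, against 130.0, 136.7 and 134.0 CPM in group-housed VTA (0.26, SE 0.07). Atp6v0a1 had 318.1, 287.3 and 335.5 CPM in isolated VTA, against 247.1, 245.3 and 284.5 CPM in group-housed VTA (0.22, SE 0.09). The lowest isolated library was again library 2, and for Atp6v0a1 it lay just above the highest group-housed one. Log2 fold changes were 0.20 for Atp6v0a2 (SE 0.07), 0.20 for Atp6ap1 (SE 0.08) and 0.18 for Atp6v0b (SE 0.07). Atp6v0e was the member whose groups overlapped, with 19.5, 17.6 and 21.4 CPM in isolated VTA, against 15.7, 17.6 and 16.1 CPM in group-housed VTA (0.19, SE 0.10).

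Isolated VTA libraries 1 and 3 also carried markers of other tissue. The sum of 10 choroid plexus markers was 252.6, 29.3 and 3390 CPM in isolated VTA, against 26.7 to 33.8 CPM in group-housed VTA. The sum of the 7 cortical neuron markers was 97.0, 64.5 and 425.5 CPM in isolated VTA, against 49.9 to 54.8 CPM in group-housed VTA. No marker of either list was at 0 in every library. All 6 pan-neuronal, all 6 oligodendrocyte and all 6 microglial markers had positive log2 fold changes in VTA, with medians of 0.19, 0.43 and 0.30. Other lists were mixed, with 3 positive and 3 negative dopamine neuron markers (median 0.01). Endothelial markers had 3 positive and 2 negative values (median 0.04), and astrocyte markers 4 and 2 (median 0.09). With only isolated library 2 kept against the 3 group-housed ones, the log2 fold change of Atp6v0c was 0.53. Those of Atp6v0a1, Atp6v0d1, Atp6v0e2 and Atp6ap2 were then 0.125, 0.158, 0.166 and 0.123. Those of Atp6v0b, Atp6ap1 and Atp6v0e were 0.0763, 0.076 and 0.0691, and that of Atp6v0a2 was 0.22. The part of these markers in the members' values was not tested.

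**Figure D3:**
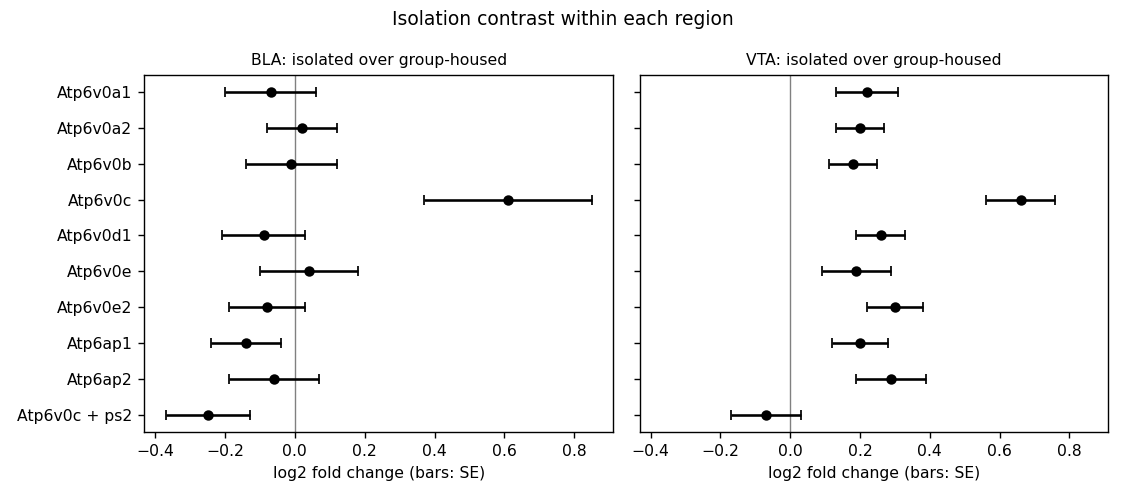
Log2 fold change, isolated over group-housed (horizontal axis, bars SE), of the 9 genes and of Atp6v0c summed with its copy, in BLA and in VTA. Atp6v0c lies near 0.6 in both regions, its sum with the copy lies at -0.25 in BLA and -0.07 in VTA, and the other genes lie near 0 in BLA and at 0.18 to 0.30 in VTA.

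The rest of the pump and its partners give the setting for these values. Of 13 V1 genes 11 were tested, and 0 of them passed in BLA, with 8 negative and 3 positive log2 fold changes and a median of -0.03. Atp6v1g2, the neuronal subunit of the peripheral stalk, was at -0.15 (SE 0.14) in BLA, and Atp6v1d of the central rotor at -0.11 (SE 0.11). In VTA 9 of the 11 had a positive log2 fold change, with a median of 0.28. Of the 11, 7 had all isolated libraries above all group-housed ones, as 17.4% of all genes did, and 1 had them all below, Atp6v1b1 at -1.47 (SE 0.46) and a mean of 0.159 CPM in isolated VTA and 0.421 CPM in group-housed VTA. Atp6v1g2 was at 0.44 (SE 0.14), Atp6v1b2, the nucleotide-binding B subunit of brain, at 0.32 (SE 0.08) and Atp6v1e1 at 0.29 (SE 0.09).

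Of the other pathway genes, 0 passed in BLA and in VTA they are described only. Among 10 genes for assembly and regulation of the pump, 8 had a negative log2 fold change in BLA (median -0.05) and 9 a positive one in VTA (median 0.15). Vma21, an assembly chaperone of V0, stood at -0.02 (SE 0.14) in BLA and 0.29 (SE 0.09) in VTA, and Oxr1, a TLDc-domain protein, at -0.12 (SE 0.20) in BLA and 0.30 (SE 0.09) in VTA. All 16 synaptic vesicle genes had positive log2 fold changes in VTA (median 0.22), among them Syp at 0.23 (SE 0.08), while in BLA their median was -0.05 and Syp stood at -0.17 (SE 0.14). Of 22 lysosomal genes 19 had positive log2 fold changes in VTA (median 0.10), Ctsd with 0.30 (SE 0.11), while Gaa was at -0.30 (SE 0.13). In BLA the lysosomal median was -0.02.

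Vesicular transmitter transporters, which the proton gradient drives, had no common direction. Of 9 tested, 4 had a positive and 5 a negative log2 fold change in VTA, and likewise 4 and 5 in BLA. Slc17a7, a vesicular glutamate transporter that is also among the cortical markers, had 23.8, 8.19 and 232.1 CPM in isolated VTA, against 2.88, 5.20 and 3.53 CPM in group-housed VTA. Slc18a2, the vesicular monoamine transporter, was at -0.32 (SE 0.27) in VTA. The remaining V0 genes of the list were low or apart from the members, with 2 of 4 tested. Of these, Tcirg1, the a3 subunit, was at 0.27 (SE 0.22) in BLA and -0.14 (SE 0.11) in VTA.

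Group-housed VTA was set against group-housed BLA to describe where the pump genes are high. With edgeR 9477 of 23535 genes (40.3%) passed, 19.0% of all genes being higher and 21.3% lower in VTA. Of the 8 members other than Atp6v0c, 5 passed as lower in VTA and 0 as higher, and the median of the 8 log2 fold changes was -0.31. With upper-quartile scaling, calls over all genes split into 6238 higher and 3751 lower instead of 4467 and 5010. The median of all genes then moved to 0.19, against 0.04 with TMM.

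Atp6v0a1 differed most, with 247.1, 245.3 and 284.5 CPM in group-housed VTA, against 405.0, 478.6 and 462.2 CPM in group-housed BLA. All VTA libraries lay below all BLA libraries, as they did for 6207 of 23535 genes. The log2 fold change was -0.79 (SE 0.10, adjusted p = 8.7e-05 by edgeR). Atp6v0d1 averaged 133.6 CPM in group-housed VTA and 193.2 CPM in group-housed BLA (-0.53, SE 0.08, adjusted p = 0.000396 by edgeR). Atp6v0e2 averaged 223.5 CPM in group-housed VTA and 314.2 CPM in group-housed BLA (-0.49, SE 0.08, adjusted p = 0.000955 by edgeR).

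Both accessory genes were lower in VTA by a smaller amount. Atp6ap1 averaged 290.1 CPM in group-housed VTA and 359.2 CPM in group-housed BLA (-0.31, SE 0.08, adjusted p = 0.00988 by edgeR), and Atp6ap2 averaged 219.7 CPM in group-housed VTA and 271.6 CPM in group-housed BLA (-0.31, SE 0.10, adjusted p = 0.036 by edgeR). Their calls were lost with upper-quartile scaling (adjusted p = 0.128 and 0.234). The call of Atp6ap1 was also lost without group-housed VTA library 1 or 2 (adjusted p = 0.0508 and 0.0556), and that of Atp6ap2 without any single library other than group-housed BLA library 2 (0.0684 to 0.155).

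Of the V0 members, Atp6v0b, Atp6v0a2 and Atp6v0e did not pass. Tcirg1, a V0 gene that is not a member, passed as higher in group-housed VTA (0.94, SE 0.18, adjusted p = 0.00178 by edgeR). It also passed as higher in VTA in isolated mice (0.59, SE 0.17, adjusted p = 0.0252 by edgeR). Atp6v0b was at -0.26 (SE 0.13, adjusted p = 0.126 by edgeR), Atp6v0a2 at -0.09 (SE 0.08, adjusted p = 0.442) and Atp6v0e at 0.24 (SE 0.11, adjusted p = 0.107). Atp6v0e had 15.7, 17.6 and 16.1 CPM in group-housed VTA, against 13.4, 15.02 and 13.4 CPM in group-housed BLA. Atp6v0e was the member with all VTA libraries above all BLA libraries, as 6462 of 23535 genes had. It passed with upper-quartile factors (adjusted p = 0.0165) and with limma voom (0.0407). Atp6v0c, described only, had a log2 fold change of -0.60 (SE 0.17) with overlapping groups, and its sum with the copy one of -0.82 (SE 0.11) without overlap.

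Of the 11 V1 genes tested, 7 passed as lower and 0 as higher in group-housed VTA than in group-housed BLA. The median of their log2 fold changes was -0.41. Of all genes, 21.3% passed as lower and 19.0% as higher. Atp6v1g2 fell by 0.98 on the log2 scale (SE 0.11, adjusted p = 5.84e-05 by edgeR) and Atp6v1d by 0.70 (SE 0.08, adjusted p = 4.76e-05). Among synaptic vesicle genes 11 of 16 passed as lower and 1 as higher, and among assembly genes 8 of 10 passed as lower. Among lysosomal genes 8 of 22 passed as higher and 1 as lower. Levels of cell type markers differed in this contrast as well. All 7 cortical and all 6 microglial markers were lower in VTA. All 6 oligodendrocyte, all 6 dopamine neuron and all 5 endothelial markers were higher. Other lists were mixed, with 2 pan-neuronal markers higher and 4 lower, and 5 astrocyte markers higher and 1 lower. Of the choroid plexus markers tested, 6 were higher and 3 lower. The part of these markers in the values of the pump genes was not tested.

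The same region contrast in isolated mice uses other libraries. There 7258 of 23280 genes (31.2%) passed with edgeR, 16.8% of all genes being higher and 14.4% lower in VTA. Of the 8 members, 1 passed as lower and 1 as higher. Atp6v0a1 had 318.1, 287.3 and 335.5 CPM in isolated VTA, against 348.1, 445.1 and 483.7 CPM in isolated BLA (-0.44, SE 0.14, adjusted p = 0.0344 by edgeR). Atp6v0e had 19.5, 17.6 and 21.4 CPM in isolated VTA, against 16.9, 12.8 and 13.0 CPM in isolated BLA (0.45, SE 0.14, adjusted p = 0.0341 by edgeR). In each the groups did not overlap. Of 23280 genes, 5213 had all VTA libraries below all BLA libraries in isolated mice, and 5958 had them all above.

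Each of these calls was lost when any of 4 of the 6 libraries was left out. Adjusted p reached 0.0954 to 0.126 for Atp6v0a1, without isolated BLA library 2 or 3 or isolated VTA library 1 or 2. It reached 0.0791 to 0.122 for Atp6v0e, without isolated BLA library 2 or 3 or isolated VTA library 1 or 3. The other 6 members had log2 fold changes of -0.13 to 0.15 and none passed. Atp6v0d1 was at -0.13 (SE 0.12, adjusted p = 0.465 by edgeR) and Atp6v0e2 at -0.06 (SE 0.12, adjusted p = 0.758). Whether the region contrast differs between isolated and group-housed mice was not tested. Atp6v0c was at -0.48 (SE 0.18) as a description, and its sum with the copy at -0.58 (SE 0.12).

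**Figure D4:**
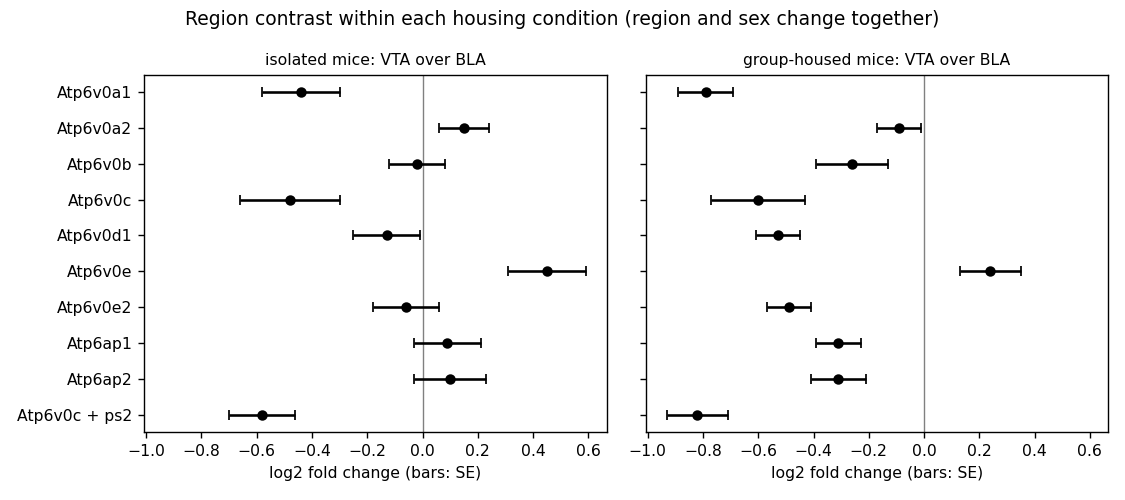
Log2 fold change, VTA over BLA (horizontal axis, bars SE), of the 9 genes and of Atp6v0c summed with its copy, in isolated and in group-housed mice; BLA is male and VTA female throughout. Atp6v0a1 is lower in VTA in both, while Atp6v0d1, Atp6v0e2, Atp6ap1 and Atp6ap2 passed the test, as lower in VTA, in group-housed mice; the difference between panels was not tested.

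Among 10388 genes with a mean of at least 10 CPM, Rps2 had the library pattern closest to Atp6v0c. Its root mean square difference was 0.25 on centred log2 levels over 12 libraries, followed by Thsd7a (0.284), Zfp385a (0.286), Cit (0.291) and Rnps1 (0.294). Rps2, which encodes a ribosomal protein, and Rnps1, which encodes a splicing factor, lie on chromosome 17 as Atp6v0c does. Thsd7a lies on chromosome 6, Zfp385a on chromosome 15 and Cit on chromosome 5. Among the members the closest was Atp6v0a1, at rank 896 (0.388), and Atp6v0e was the farthest at rank 7260 (0.558). Atp6v0c-ps2 stood at rank 10368.

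Its neighbours on the chromosome were looked at by position. Of the 10 nearest tested genes, 5 on each side, 0 passed in BLA, with log2 fold changes of -0.95 to 0.52. In VTA, described only, 6 were positive and 4 negative, from -2.19 to 0.43. The lowest was Prss41 (SE 0.45), at a mean of 0.232 CPM in isolated VTA and 1.08 CPM in group-housed VTA. Amdhd2, which starts 0.1 kb away, stood at 0.11 (SE 0.15) in BLA and 0.00 (SE 0.10) in VTA. Tbc1d24, 5.73 kb away on the other side and itself tied to the pump through its TLDc domain, stood at -0.08 (SE 0.10) in BLA and -0.03 (SE 0.08) in VTA. Pdpk1, 12.9 kb away, was at 0.02 (SE 0.09) in BLA and 0.29 (SE 0.09) in VTA.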

How the data were processed

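The deposited values are raw counts per gene, 1 column for each of the 12 libraries. Per the labels' protocols, Trizol was used for RNA, and 1 ug of it went into stranded total RNA libraries depleted of ribosomal RNA. Per the submitters' processing notes, cutadapt, TopHat2 and HTSeq were used with mm10. Versions, annotation, strand setting and treatment of reads with several matches are given by no source used here. Of 54429 entries, 98.9% of names matched GENCODE M21. Values came from the per-sample tables. The series table has other values at 2 entries, neither of them a member.

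The members and lists were chosen with earlier results of these data known. Genes were filtered with filterByExpr (minimum count 10, total 15), scaled with TMM within each fit of 6 libraries, and compared by the robust quasi-likelihood F test of edgeR 4.0.16 (R 4.3.3), with Benjamini-Hochberg adjustment over all genes and a threshold of 0.05. Alternatives were DESeq2 1.42.0, limma voom 3.58.1, a threshold of 0.1, other scalings and filters, libraries left out, 1 fit of 12 libraries, and a replicate block. Named list genes were, per list, up to 3 by smallest p in BLA and up to 3 by size in VTA at a mean of at least 10 CPM. The 10 neighbours were taken by position and 5 genes by likeness on log2(CPM + 0.5), and copies by annotation. The code for the fits was tested on simulated counts. Figures used matplotlib 3.10.9.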

Additional observations from a re-analysis of the deposited data

How the results depend on the processing

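Precision is limited by 3 libraries a group and, for Atp6v0c, by the near-identical copy. In BLA, 0 genes were called under edgeR; the count was 6 with DESeq2, 8 with no filter, 1 without the 3 libraries rich in ribosomal RNA loci, and 0 to 4 with single libraries left out (4 without isolated library 2). In VTA, 1 gene was called; the count was 486 with DESeq2, 2 with limma voom, 17 with no filter and 0 with upper-quartile factors or without the 2 libraries rich in choroid plexus markers. Leaving out single VTA libraries gave 0 to 1200 calls, 1200 without isolated library 2. Counts for VTA over BLA stayed within 1.5 times of 9477 in group-housed mice (7370 to 9099 with libraries left out) and ranged from 4236 (without isolated VTA library 1) to 7409 in isolated mice. The cause was not tested.

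In BLA, signs of values near 0 changed. Atp6v0a1 was 0.0235, Atp6v0a2 -0.0401 and Atp6v0e -0.0047 with limma voom. Atp6v0b was 0.0044 with upper-quartile factors and 0.0027 with no filter. The sum with the copy put Atp6v0c at -0.25. With BLA libraries left out, ranges that cross 0 were -0.179 to 0.0518 for Atp6v0a1, -0.0627 to 0.0551 for Atp6v0a2, -0.155 to 0.134 for Atp6v0b, -0.148 to 0.0221 for Atp6v0d1, -0.107 to 0.111 for Atp6v0e, -0.146 to 0.014 for Atp6v0e2 and -0.167 to 0.0353 for Atp6ap2. In VTA over BLA, Atp6v0a2 was 0.0633 with upper-quartile factors in group-housed mice, and in isolated mice the ranges with libraries left out crossed 0 for Atp6v0b (-0.053 to 0.0433), Atp6v0e2 (-0.15 to 0.0195) and Atp6ap2 (-0.00556 to 0.201).

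Replicate numbers were not shown to pair the libraries, since deviations of same-numbered libraries correlated at -0.154 to 0.33. A replicate block gave 0 calls in BLA, 0 in VTA, and 8569 and 6600 calls for VTA over BLA in group-housed and isolated mice, and put Atp6v0b at 0.0127 in BLA.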

Other observations

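A further 2 genes of chromosome 17 have a similar copy elsewhere in the annotation, and their levels are given beside those of the copies. They were chosen after their values were seen. In BLA all 4 entries missed the test (adjusted p = 1 by edgeR). Rnps1, a splicing factor gene, had 70.3, 68.7 and 86.2 CPM in isolated BLA, against 66.1, 63.6 and 55.8 CPM in group-housed BLA. Gm9825 on chromosome 6, which shares 72.2% of its stretches of 50 bases with Rnps1 transcripts, had 0.189, 9.51 and 0.638 CPM in isolated BLA, against 14.5, 15.1 and 20.3 CPM in group-housed BLA. In VTA, Rnps1 had 73.9, 63.0 and 72.2 CPM in isolated libraries, against 58.8, 52.3 and 50.6 CPM in group-housed libraries. There Gm9825 had 0.181, 3.83 and 0.0832 CPM in isolated libraries, against 6.20, 10.3 and 10.2 CPM in group-housed libraries. Isolated libraries 1 and 3 of each region, which had the fewest counts at Atp6v0c-ps2, were also the lowest for Gm9825.

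Hmga1, a chromatin architecture gene of chromosome 17, had 17.6, 14.1 and 19.0 CPM in isolated BLA, against 11.8, 12.1 and 12.1 CPM in group-housed BLA. Hmga1b on chromosome 11, which shares 89.0% of such stretches with Hmga1 transcripts, had 3.14, 7.16 and 3.22 CPM in isolated BLA, against 7.10, 7.93 and 11.4 CPM in group-housed BLA. In VTA, Hmga1 had 30.5, 22.4 and 24.9 CPM in isolated libraries, against 18.4, 20.98 and 26.4 CPM in group-housed libraries. There Hmga1b had 4.51, 6.82 and 4.08 CPM in isolated libraries, against 8.20, 4.28 and 4.47 CPM in group-housed libraries. For both entries of this pair the VTA groups overlapped.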
